A study of Mus musculus with 20 samples.

Results

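CpG methylation at Cd34 and Kit was described across 20 libraries of sorted mouse promyelocytes. CD34 is a sialomucin on the surface of haematopoietic stem and progenitor cells and is the protein by which these cells were sorted. KIT is the receptor tyrosine kinase for stem cell factor, and its signalling maintains stem cells, early progenitors and mast cells. In granulocyte differentiation both proteins are known as markers of immature cells. Promoters rich in CpG are usually free of methylation in blood cells whether or not the gene is used, while CpG further into genes and between genes is usually methylated and can vary at enhancers.

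The members were all CpG cytosines in an interval around Cd34 (mm9 chromosome 1, positions 196745001 to 196800000) and around Kit (chromosome 5, positions 75950001 to 76065000). A cytosine was kept when it had at least 10 reads in at least 4 of 5 libraries of each group, with each strand counted on its own. This gave 42 cytosines at Cd34 and 159 at Kit, 201 of the 1730534 kept on the autosomes. At Cd34 63 cytosines were listed in at least 1 library, at Kit 321. The kept ones lay in 32 fixed windows of 1000 bp, 4 at Cd34 and 28 at Kit. Of these, 21 held at least 3 kept cytosines (3 at Cd34, 18 at Kit), among 127276 such windows on the autosomes.

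The libraries were made by enhanced reduced representation bisulfite sequencing, which reads CpG-rich restriction fragments after bisulfite treatment, so that methylated cytosines are read as C and unmethylated ones as T. There were 4 groups of 5 libraries, all of the FVB/n background: CD34− late promyelocytes of PML-RARa transgenic mice, CD34+ early promyelocytes of PML-RARa mice, CD34− cells of wild-type (WT) mice and CD34+ cells of WT mice. The labels used here give neither the age of the mice nor the promoter of the transgene. Nor do they say whether each library came from its own mouse. The p-values set group differences against the spread between libraries, which may in part be technical. Total coverage summed over cytosines was 83631324 to 362881291 per library, with a median of 32 to 150 reads per cytosine. The libraries are named by the leading number of their title. PML-RARa CD34+ replicates 5 and 11, PML-RARa CD34− replicates 6 and 12 and WT CD34+ replicate 1 scattered most from their groups over the genome. At member cytosines above 80% on average, these 5 libraries gave 8 of 383 values (2.09%) below 50%, and the other 15 gave 5 of 1287 (0.389%). Replicates 1, 5, 11 and 12 also had the lowest median coverage, 32 to 48 reads, while replicate 6 had 115. The part of these 5 libraries in the results below is given by the values without them. Fits without them hold fewer PML-RARa and WT CD34+ libraries, so that a call can be lost through that alone.

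The sequences before the start of transcription are shown because the kept CpG of Kit in them were nearly free of methylation and because the genes differ in how many CpG they hold there. At Cd34 no CpG of the sequence was kept, so its methylation was not measured here. They are the 250 bases before the start in RefSeq (GRCm38.p6), plus strand, 5′ to 3′. For Kit, which has 2 listed starts, the first listed was used here and for all distances. They were placed on mm9 by their CpG spacing, which matched the listed cytosines of each interval at 1 offset alone (5 listed cytosines at Cd34, 22 at Kit). Capitals mark every CpG in the Cd34 sequence and the kept CpG in the Kit sequence. Cd34 lies at chr1:196764765-196765014 and Kit at chr5:75970762-75971011.
Cd34: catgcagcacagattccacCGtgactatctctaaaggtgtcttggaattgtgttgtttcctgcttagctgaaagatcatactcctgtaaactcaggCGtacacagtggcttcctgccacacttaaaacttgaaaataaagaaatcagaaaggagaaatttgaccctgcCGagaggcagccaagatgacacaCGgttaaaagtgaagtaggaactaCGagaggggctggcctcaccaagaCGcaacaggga
Kit: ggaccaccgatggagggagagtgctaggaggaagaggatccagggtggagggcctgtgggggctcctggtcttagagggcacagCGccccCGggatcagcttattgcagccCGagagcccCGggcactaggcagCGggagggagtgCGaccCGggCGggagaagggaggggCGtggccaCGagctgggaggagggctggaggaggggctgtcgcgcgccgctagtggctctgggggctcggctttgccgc

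The Cd34 sequence holds 6 CpG, of which 3 were listed in some library and 0 were kept. The Kit sequence holds 17 CpG, of which 15 were listed and 10 were kept. The Sp1-type letters GGGCGG occur 1 time in the Kit window and not in that of Cd34, and are found in 32.7% of the 32851 promoter windows of that length. The Ets-type letters TTCCTG occur 2 times in the Cd34 window and not in that of Kit, and are found in 25.7% of windows. The GATA-type letters AGATAA (9.99% of windows) and the E-box CANNTG (66.2%) were found in neither. Both strands were searched, these motifs do not overlap, and a match of letters is not a binding site. In RefSeq order, the nearest protein-coding genes are Plxna2 and Cd46 on the sides of Cd34, and Pdgfra and Kdr, which encode other receptor tyrosine kinases, on the sides of Kit.

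Around the start of Kit the DNA was nearly free of methylation in every group. From 451 bp before to 4013 bp after the start, 71 kept cytosines in a row (positions 75970561 to 75975025) had a mean over libraries of at most 1.19%. The stretch was not measured throughout: no cytosine was kept between the window that ends at 75972000 and the one that begins at 75974001. In all libraries together 322 of 179852 reads at these cytosines were methylated (0.179%). The highest value of a single library at any of these cytosines was 20.8%. At 25 of the 71 no read of 50652 was methylated. These 25 were picked for holding no methylated read, so no upper limit follows from them. The cytosine before this stretch, 866 bp away, averaged 96.5%, and the next kept one after it, 5997 bp away, averaged 71.4%.

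The 1 kb window with the start of Kit, positions 75971001 to 75972000, held 35 cytosines. Its methylation was 0.0868%, 0.0182%, 0.0981%, 0% and 0.0686% in PML-RARa CD34− libraries, and 0.0650%, 0%, 0.0419%, 0.0799% and 0.0156% in PML-RARa CD34+ libraries. In WT mice it was 0.0789%, 0.0312%, 0%, 0.120% and 0.0676% in CD34− libraries, and 0.0811%, 0.0438%, 0%, 0.485% and 0.114% in CD34+ libraries. All libraries were below 1% and the groups overlapped. The window from 75970001, with 28 cytosines, gave group means of 0.132% to 0.321%. At 75975001 to 75976000, the Kit window of smallest p for CD34− against CD34+ in WT mice among those of at least 3 cytosines, the levels were 0.355% ± 0.255 in CD34− and 1.802% ± 1.66 in CD34+ libraries (n = 5 each, SD), with an adjusted p of 0.713 in the quasi-binomial fit.

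At Cd34 the unmethylated cytosines lay just after the start. There were 27 kept cytosines between 29 and 267 bp after it (positions 196765044 to 196765282), all in the window 196765001 to 196766000. That window averaged 0.151% ± 0.0813 in PML-RARa CD34− and 0.297% ± 0.328 in PML-RARa CD34+ libraries. In WT mice it averaged 0.265% ± 0.138 in CD34− and 0.171% ± 0.137 in CD34+ libraries (n = 5 each, SD). A pair of cytosines before the start, at distances of -10902 and -10749 bp, were also almost unmethylated, apart from 16.8% at the first in 1 WT CD34− library. Their window, 196754001 to 196755000, averaged 2.59% ± 4.80 in WT CD34− and 0.0310% ± 0.0692 in WT CD34+ libraries (n = 5 each, SD; unadjusted p = 0.0207, adjusted p = 0.606 in the quasi-binomial fit over windows of at least 1 cytosine). Over these 29 cytosines, 124 of 49281 reads were methylated (0.252%).

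The remaining 13 kept cytosines of Cd34 were highly methylated and lay in 2 windows, 21.0 and 31.0 kb after the start. The first, 196786001 to 196787000, averaged 95.4% ± 4.42 in PML-RARa CD34− and 92.1% ± 3.57 in PML-RARa CD34+ libraries, and 94.8% ± 2.24 in WT CD34− and 94.5% ± 2.92 in WT CD34+ libraries. The second, 196796001 to 196797000, had the smallest p of the 3 Cd34 windows with at least 3 cytosines in each comparison of 2 groups and in the interaction. It read 93.8%, 100%, 79.8%, 88.2% and 93.9% in PML-RARa CD34− libraries and 97.9%, 99.0%, 100%, 96.3% and 94.4% in PML-RARa CD34+ libraries. In WT mice it read 96.8%, 92.8%, 95.2%, 100% and 97.8% in CD34− libraries and 81.5%, 94.7%, 97.2%, 96.6% and 97.7% in CD34+ libraries. The groups overlapped, and the low values of 79.8% and 81.5% came from libraries of high scatter. No kept cytosine of Cd34 averaged between 20 and 80%.

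**Figure D1:**
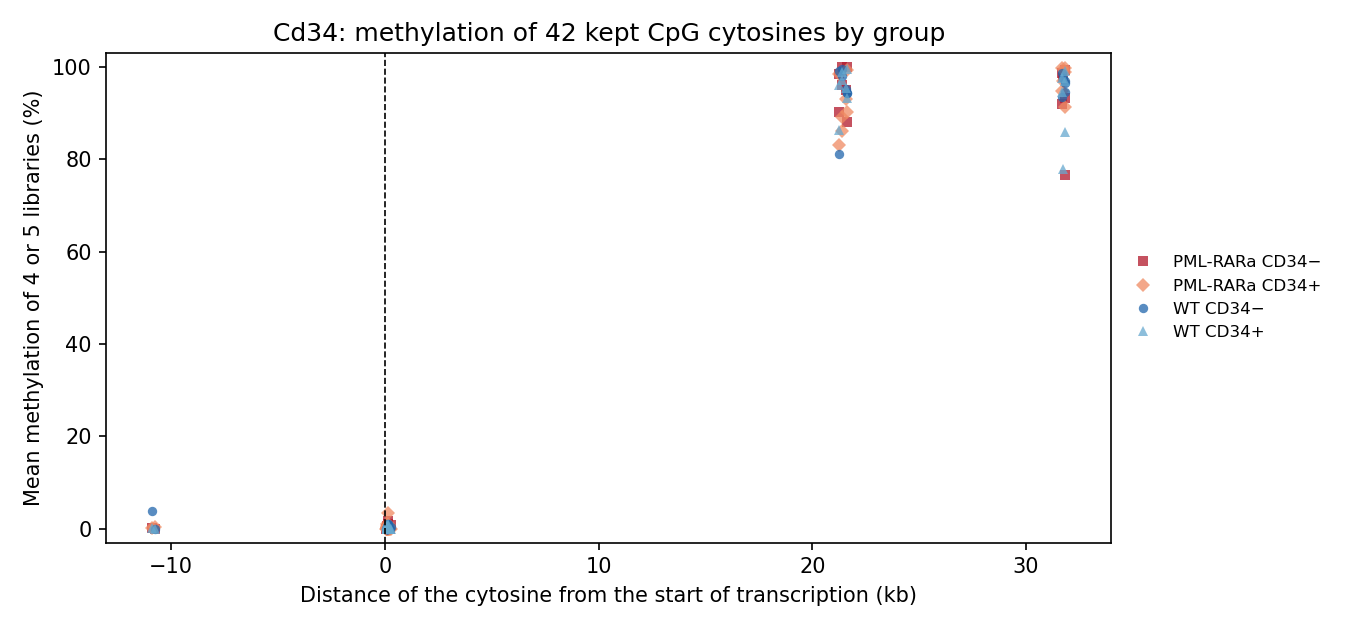
Mean methylation (%) of the 42 kept CpG cytosines of Cd34 in each of the 4 groups (4 or 5 libraries a group), against distance from the start of transcription (kb, dashed line at the start). The 29 cytosines at or before 267 bp after the start sit near 0%. The 13 in the windows that begin 21.0 and 31.0 kb after the start average above 80%.

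Away from its start Kit was mostly methylated, with a few positions of intermediate level. Of the 159 cytosines 73 (45.9%) averaged below 20%, 12 (7.55%) between 20 and 80% and 74 (46.5%) above 80%, against 60.4%, 7.41% and 32.2% of all kept cytosines. The 74 highly methylated ones averaged 92.9% ± 0.946 in PML-RARa CD34−, 92.7% ± 1.11 in PML-RARa CD34+, 92.8% ± 0.666 in WT CD34− and 92.4% ± 1.90 in WT CD34+ libraries. The 12 intermediate ones averaged 61.3% ± 4.53 in PML-RARa CD34−, 55.1% ± 5.36 in PML-RARa CD34+, 57.4% ± 4.04 in WT CD34− and 54.4% ± 3.30 in WT CD34+ libraries (n = 5 each, SD). They lay between 10010 and 53186 bp after the start. Among them are 76000551 and 76000582, the cytosines of the window of widest difference between fractions, described below. Also among them are 76003504 and 76003559, whose percents may not be methylation levels, as given below. The median SD within groups was 0.207 points at the Kit cytosines below 20%, 16.8 at the intermediate and 6.50 at the highly methylated ones. Over all kept cytosines it was 0.418, 15.7 and 6.92 points.

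**Figure D2:**
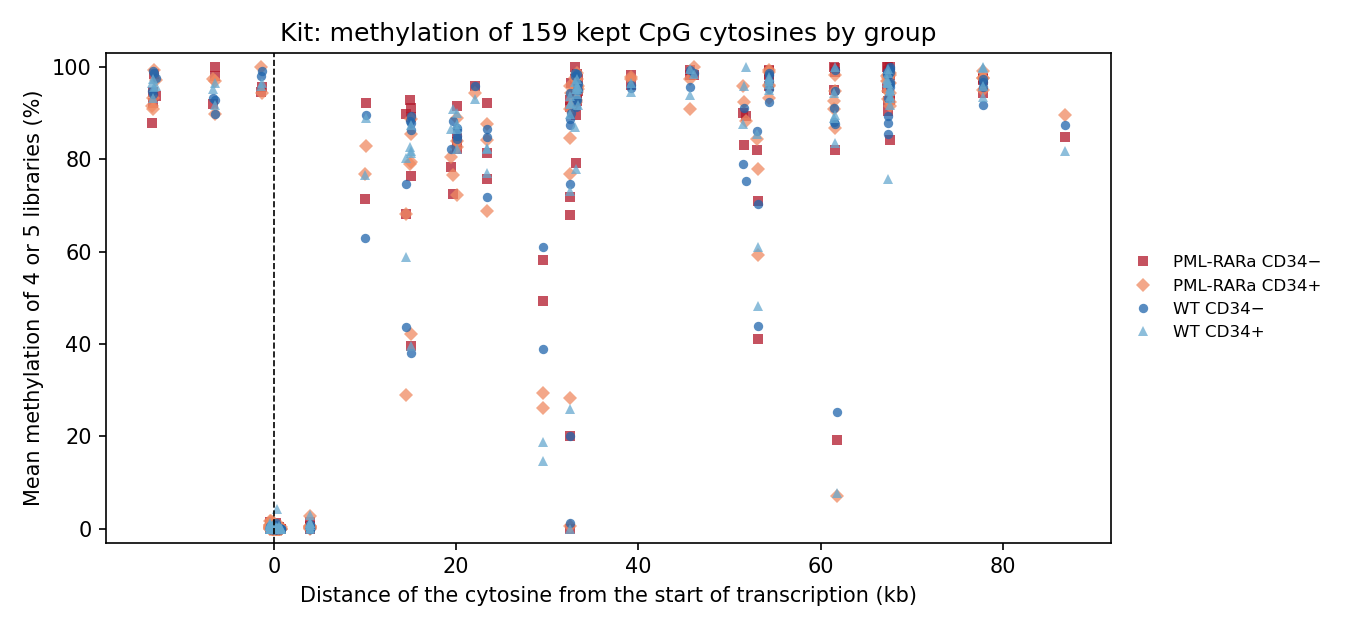
Mean methylation (%) of the 159 kept CpG cytosines of Kit in each of the 4 groups (4 or 5 libraries a group), against distance from the start of transcription (kb, dashed line at the start). The 71 cytosines from 451 bp before to 4013 bp after the start sit near 0%, most others lie above 80%, and at 29.5 kb the CD34− groups lie above the CD34+ groups.

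Averaged over all kept cytosines, Kit stood at 47.6% ± 0.644 in PML-RARa CD34−, 47.0% ± 1.69 in PML-RARa CD34+, 47.2% ± 0.733 in WT CD34− and 46.6% ± 2.46 in WT CD34+ libraries. Cd34 stood at 30.4% ± 4.06 in PML-RARa CD34−, 27.8% ± 3.86 in PML-RARa CD34+, 28.7% ± 2.05 in WT CD34− and 28.7% ± 2.45 in WT CD34+ libraries (n = 5 each, SD). The groups overlapped at both genes. With all reads pooled they overlapped too, but the CD34− means lay below the CD34+ means at both genes in both genotypes. Kit then stood at 36.7% ± 6.76 in PML-RARa CD34− and 41.6% ± 3.61 in PML-RARa CD34+ libraries.

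The first question of the design is how promyelocytes of PML-RARa mice differ from those of WT mice. A window or cytosine was called when its adjusted p was below 0.05 and its group means differed by at least 10 percentage points. The p came from a quasi-binomial logistic model with Benjamini-Hochberg adjustment over all windows or all cytosines of the autosomes. In CD34− cells 0 of the 21 windows were called (0.000786% of all windows tested), and 1 of 21 had an unadjusted p below 0.05 (7.79% of all). Of the 201 cytosines 0 were called (5.78e-05% of all) and 15 had an unadjusted p below 0.05 (8.44% of all). In CD34+ cells 0 windows were called (0.00314% of all), 0 had an unadjusted p below 0.05 (4.19% of all), 0 cytosines were called (5.78e-05% of all) and 12 had an unadjusted p below 0.05 (5.34% of all). Limma called 0 of the 21 windows in both. The median difference of the windows between PML-RARa and WT was 0.40 points in CD34− and -0.10 points in CD34+ cells, against -0.01 points in CD34− and -0.06 points in CD34+ cells over all windows.

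Among the Kit windows of at least 3 cytosines, the one with the smallest p between genotypes in CD34− cells, and with the widest range of group means, was 75985001 to 75986000, which starts 14.0 kb after the start and holds 3 cytosines. In CD34− libraries it read 76.0%, 69.8%, 96.7%, 76.6% and 84.9% in PML-RARa mice and 72.5%, 55.5%, 68.4%, 72.4% and 59.6% in WT mice. In CD34+ libraries it read 68.7%, 65.2%, 50.8%, 64.3% and 66.5% in PML-RARa mice and 88.5%, 68.1%, 78.4%, 60.6% and 65.8% in WT mice. PML-RARa CD34− libraries were the highest on average at 80.8% and PML-RARa CD34+ libraries the lowest at 63.1%, with no overlap between those 2 groups. The window was picked by its p and range, so that this separation is no added evidence. The other pairs of groups overlapped.

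In the quasi-binomial fit the difference of PML-RARa from WT at this window was 15.1 points in CD34− cells (unadjusted p = 0.0357, adjusted p = 0.620) and -9.19 points in CD34+ cells (adjusted p = 1.00). The difference of CD34− from CD34+ was 17.7 points in PML-RARa mice (unadjusted p = 0.0155, adjusted p = 0.406) and -6.60 points in WT mice (adjusted p = 0.978). The interaction was 24.3 points (unadjusted p = 0.0213, adjusted p = 0.964), and 15.2 points without the 5 libraries of high scatter. None of these was called. Of its cytosines, 75985509 on the reverse strand averaged 68.1% ± 15.1 in PML-RARa CD34−, 28.9% ± 17.4 in PML-RARa CD34+, 43.7% ± 15.2 in WT CD34− and 58.7% ± 20.0 in WT CD34+ libraries (n = 5 each, SD). It ran from 4.71% to 90.6% over the libraries.

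**Figure D3:**
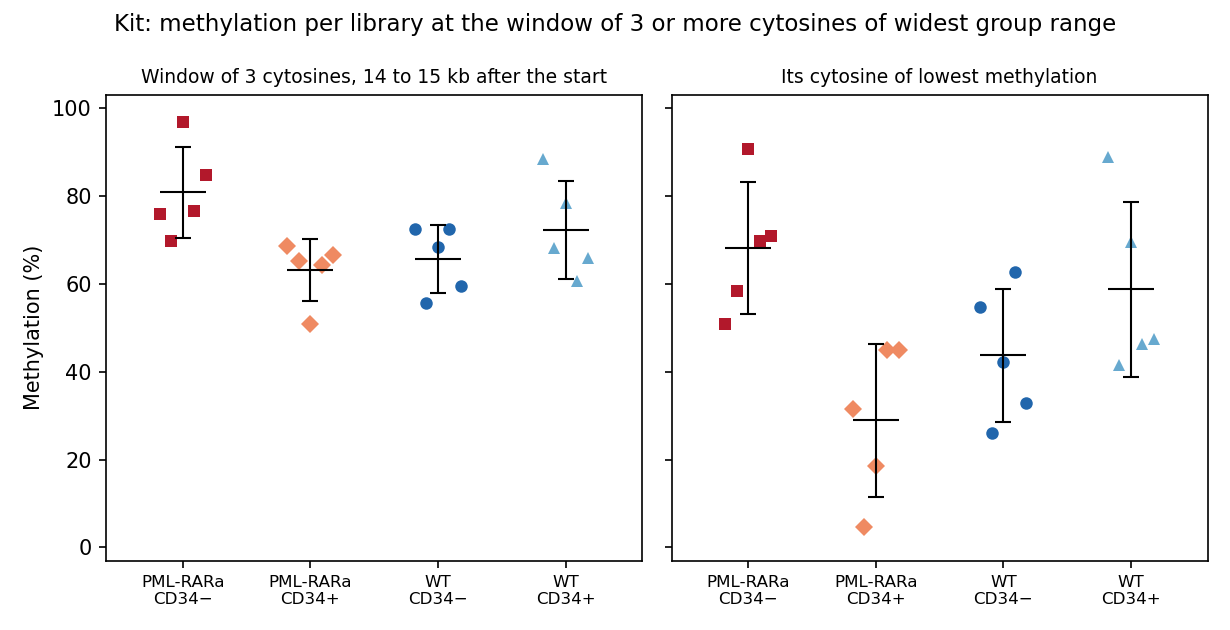
Methylation (%) per library in the Kit window that starts 14.0 kb after the start (left) and at its cytosine of lowest methylation (right), with the mean and SD of each group as black bars (n = 5 each). PML-RARa CD34− libraries average 80.8% and PML-RARa CD34+ libraries 63.1% in the window.

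At single cytosines no difference between the genotypes was called. In CD34− cells the Kit cytosine of smallest p was 76032543 on the reverse strand, 100% in all 5 PML-RARa libraries and 81.1%, 75.2%, 96.6%, 91.8% and 95.6% in WT libraries. The difference was 11.9 points, with an SD of 9.43 points among WT libraries (unadjusted p = 0.000679, adjusted p = 0.309 in the quasi-binomial fit). The cytosine was picked by its p, so that the separation of these groups is no added evidence. The Cd34 cytosine of smallest p there, 196786630 on the reverse strand, was 100% in all PML-RARa libraries and between 81.5% and 100% in WT libraries (adjusted p = 0.412). That cytosine also had the smallest p of Cd34 between the fractions of WT mice, with 98.2% to 100% in CD34+ libraries (adjusted p = 0.747). In CD34+ cells the window of smallest p at Kit, among those of at least 3 cytosines, was 75991001 to 75992000, at 81.9% ± 6.68 in PML-RARa and 86.4% ± 1.43 in WT libraries (n = 5 each, SD; adjusted p = 1.00). The difference of -4.52 points was -1.94 points without PML-RARa replicate 11, a library of high scatter that read 71.6%. The cytosines of smallest p in CD34+ cells lay near 0%. At Kit 75970683 it was 6.42% in PML-RARa replicate 19, at most 0.735% in the other PML-RARa libraries and 0% in WT libraries. At Cd34 196765044 it was 0% in PML-RARa libraries and up to 1.98% in WT libraries. Chosen after the values were seen, the Kit cytosine 75990635 on the reverse strand was lower in PML-RARa cells on average in both fractions, at 72.5% against 88.3% in CD34− (adjusted p = 0.461) and 76.5% against 90.8% in CD34+ cells (adjusted p = 0.880).

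The second question is how methylation differs between CD34− late and CD34+ early promyelocytes, here at the gene of the sorting marker itself and at Kit. In WT mice 0 of the 21 windows were called (0.427% of all windows tested), and 1 of 21 had an unadjusted p below 0.05 (6.21% of all). Of the cytosines 0 were called (0.0429% of all) and 16 of 201 had an unadjusted p below 0.05 (5.83% of all). In PML-RARa mice 0 windows were called (0.0558% of all), 2 had an unadjusted p below 0.05 (9.42% of all), 0 cytosines were called (0.00196% of all) and 17 had an unadjusted p below 0.05 (8.53% of all). Limma called 0 windows in both. The median difference of CD34− from CD34+ over the 21 windows was -0.09 points in WT and -0.02 points in PML-RARa mice, against -0.37 points in WT and -0.12 points in PML-RARa mice over all windows. The 2 PML-RARa windows were the one at 14.0 kb and 76032001 to 76033000, at 86.7% ± 5.52 in CD34− and 79.3% ± 3.08 in CD34+ libraries (adjusted p = 0.389), where the groups overlapped. The difference of 7.36 points at 76032001 was 2.48 points over cytosines read in all 20 libraries.

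Neither gene showed a called difference at its start between the fractions that CD34 itself defines. The Cd34 start window differed by -0.15 points in PML-RARa mice (adjusted p = 0.807) and by 0.09 points in WT mice (adjusted p = 0.988). The Kit start window differed by 0.01 points in PML-RARa mice (adjusted p = 1.00) and by -0.09 points in WT mice (adjusted p = 0.962), all by the quasi-binomial fit.

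The widest difference between fractions lay 29539 and 29570 bp after the start of Kit, in a window with only 2 kept cytosines, 76000001 to 76001000. It was chosen after its values were seen, among the 32 windows with at least 1 cytosine. It read 61.5%, 26.9%, 57.5%, 61.0% and 45.0% in PML-RARa CD34− libraries and 28.5%, 16.8%, 43.2%, 29.6% and 20.8% in PML-RARa CD34+ libraries. In WT mice it read 47.1%, 57.0%, 41.4%, 47.2% and 49.2% in CD34− libraries and 2.67%, 20.7%, 18.9%, 33.0% and 7.46% in CD34+ libraries. Every WT CD34− library lay above every WT CD34+ library. In PML-RARa mice 4 of 5 CD34− libraries lay above all CD34+ libraries, and the exception, replicate 6, had 26 reads, all at 1 of the cytosines. The window rested on 26 to 130 reads per library.

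The group means of this window were 50.4% ± 14.7 in PML-RARa CD34− and 27.8% ± 10.1 in PML-RARa CD34+ libraries, a difference of 22.6 points. In WT mice they were 48.4% ± 5.63 in CD34− and 16.5% ± 11.9 in CD34+ libraries (n = 5 each, SD), a difference of 31.8 points. In the quasi-binomial fit over all 212970 windows with at least 1 cytosine, PML-RARa mice had an unadjusted p of 0.000768 and an adjusted p of 0.168, and WT mice an unadjusted p of 0.000244 and an adjusted p of 0.0607. The window was called in neither, while 0.0507% of these windows were called in PML-RARa and 0.323% in WT mice. In WT mice the window was called without CD34+ replicate 15 (36.0 points, adjusted p = 0.0150) and with a block of the # number that the titles carry (31.8 points, adjusted p = 0.0441), and over the alternatives its adjusted p lay between 0.0150 and 0.232. With the fraction tested in both genotypes together, a test added after the values were seen, the difference was 27.2 points (quasi-binomial fit, unadjusted p = 8.96e-06, adjusted p = 0.00369) and the window was called, 1 of 32 member windows against 0.534% of all. Of the 21 windows with at least 3 cytosines 0 were called in that test (0.618% of all), and 1 had an unadjusted p below 0.05 (9.73% of all). For the window of 2 cytosines the adjusted p lay between 0.00119 and 0.0127 when each library was left out in turn. It was 0.00939 without the 5 libraries of high scatter. The test of both genotypes together was not run with a flowcell factor or a replicate block. Those were run within each genotype, where the adjusted p in PML-RARa mice lay between 0.142 and 0.325 over the alternatives. The interaction of genotype and fraction was -9.23 points (adjusted p = 0.970), and PML-RARa minus WT was 2.01 points in CD34− (adjusted p = 0.908) and 11.2 points in CD34+ cells (adjusted p = 0.997).

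**Figure D4:**
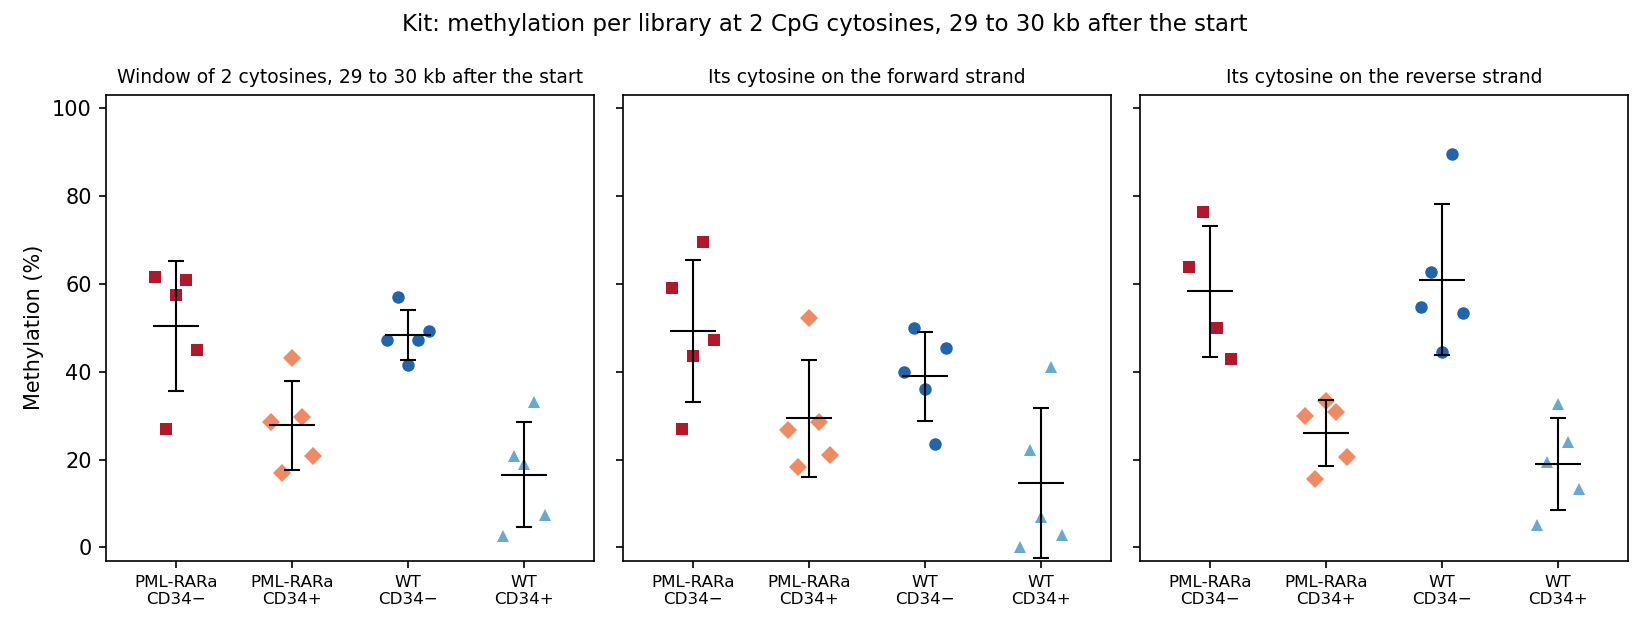
Methylation (%) per library in the Kit window of 2 cytosines (left), at its forward-strand cytosine (middle) and at its reverse-strand cytosine (right), with the mean and SD of each group as black bars (n = 5, or 4 for the reverse-strand cytosine in PML-RARa CD34− cells). The window averages 50.4% and 48.4% in the CD34− groups and 27.8% and 16.5% in the CD34+ groups of PML-RARa and WT mice.

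Flowcell was checked as a batch, with the 4 flowcells of the labels called A, B, C and D. In WT mice the CD34− minus CD34+ difference of this window was 43.1 points on A (2 libraries a fraction), 36.3 on B (1 a fraction) and 18.3 on D (2 a fraction). In PML-RARa mice both fractions shared flowcell B alone, where 2 CD34− libraries averaged 59.5% and 3 CD34+ libraries 29.5%, a difference of 30.03 points. In the other PML-RARa libraries flowcell and fraction cannot be told apart.

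The 2 cytosines lie 31 bp apart on opposite strands and so were read on different strands. At 76000582 on the reverse strand, methylation was 63.8%, 76.5%, 50% and 42.9% in the 4 PML-RARa CD34− libraries that covered it, and 30%, 15.5%, 33.3%, 30.8% and 20.6% in PML-RARa CD34+ libraries. In WT mice it was 54.8%, 62.7%, 44.4%, 89.5% and 53.3% in CD34− libraries and 5.00%, 19.4%, 32.7%, 24.1% and 13.3% in CD34+ libraries. The CD34− libraries of both genotypes lay above all CD34+ libraries, in a window chosen after its values were seen. The difference was 32.2 points in PML-RARa (adjusted p = 0.275) and 42.1 points in WT mice (adjusted p = 0.152), not called in either. It was 37.1 points in both together (adjusted p = 0.0160), where it was the 1 member cytosine called, against 0.106% of all cytosines. Without the 5 libraries of high scatter the difference was 31.8 points (unadjusted p = 0.000122, adjusted p = 0.0874), and the cytosine was not called.

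At 76000551 on the forward strand, methylation was 59.1%, 26.9%, 43.5%, 69.6% and 47.3% in PML-RARa CD34− libraries and 26.7%, 18.4%, 52.2%, 28.6% and 21.1% in PML-RARa CD34+ libraries. In WT mice it was 40%, 50%, 36.0%, 23.5% and 45.5% in CD34− libraries and 0%, 22.2%, 7.02%, 41.0% and 2.70% in CD34+ libraries. The means lay in the same direction as on the other strand, but the groups overlapped in both genotypes. The difference was 19.9 points in PML-RARa and 24.4 points in WT mice, and 22.2 points in both together (adjusted p = 0.253, not called). Neighbouring windows of Kit, which begin 22989 and 31989 bp after the start, differed between the fractions by less than 10 points in both genotypes.

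**Figure D5:**
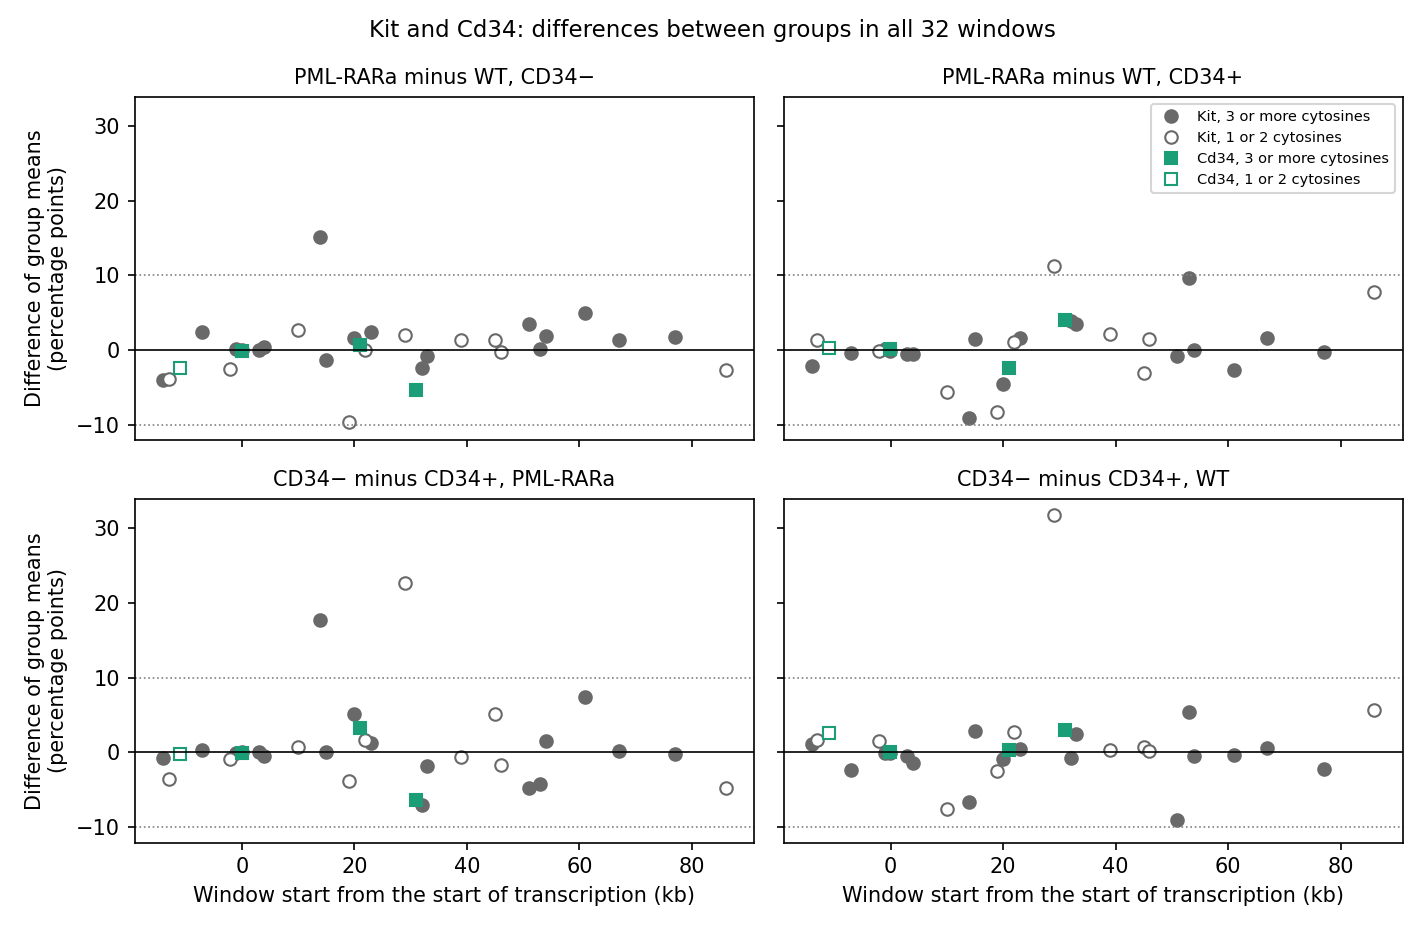
Difference of group means (percentage points) in each of the 28 Kit and 4 Cd34 windows against the position of the window from the start of transcription (kb), for PML-RARa minus WT in CD34− and CD34+ cells (top) and for CD34− minus CD34+ in PML-RARa and WT mice (bottom). Filled symbols are windows of at least 3 cytosines, and dotted lines mark 10 points. The window that begins 28989 bp after the start stands at 22.6 points in PML-RARa and 31.8 points in WT mice.

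Whether the difference between fractions itself differed between genotypes was tested as an interaction. It was called at 0 of the 21 windows (0.0% of all windows tested) and 0 of the 201 cytosines (0.000982% of all), with 2 windows (5.16% of all) and 13 cytosines (5.55% of all) at an unadjusted p below 0.05. Limma called 0 windows. The 2 windows were the Kit window at 14.0 kb and the Cd34 window at 31.0 kb (-9.34 points, adjusted p = 0.964). The Kit cytosine of smallest p for the interaction, and for CD34− against CD34+ in PML-RARa mice, was 76032543. In PML-RARa mice it was 100% in the 5 CD34− libraries and 86.4%, 100%, 100%, 92.5% and 75.7% in CD34+ libraries (adjusted p = 0.255), and its interaction was 15.3 points (adjusted p = 0.730). The Cd34 cytosine 196796850 on the reverse strand, in that window, had the smallest p of Cd34 for CD34− against CD34+ in PML-RARa mice. It read 82.8%, 100%, 26.0%, 73.9% and 100% in CD34− libraries and 96.6%, 100%, 98.7% and 100% in the 4 CD34+ libraries that covered it (adjusted p = 0.487). The low value came from replicate 12, a library of high scatter, with 50 reads.

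Single cytosines of Kit also differed from their close neighbours in all groups, which were chosen after the values were seen. Of 25 Kit CpG read on both strands 23 agreed within 10 points, and 2 differed by at least 50 points, as did 1.37% of the 353316 CpG of the autosomes. At 0 of 9 Cd34 CpG was there such a difference. The first Kit CpG, 32492 bp after the start, averaged 73.1% on the forward strand (position 76003504) and 0.476% on the reverse strand (76003505). The second, 32547 bp after the start, averaged 23.6% on the forward strand (76003559) and 94.2% on the reverse strand (76003560). The order was the same in every library that covered both strands, 19 at the first and 20 at the second. No FVB/n sequence was used here, so whether these positions are CpG in these mice was not tested, and their percents are shares of reads with C that may not be methylation levels. At 75986080, on the reverse strand 15068 bp after the start, the mean was 39.8% ± 17.9, against 87.4% ± 11.3 at 75986087, 7 bases away on the same strand (SD over 20 libraries), and it was lower in 20 of 20 libraries.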

How the data were processed

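DNA methylation was measured by enhanced reduced representation bisulfite sequencing in 20 libraries. CASAVA 1.8.2, Bismark and the mm9 build are named in the submitters' processing notes. The deposited tables give, for each CpG cytosine of each strand, the count of reads that cover it and, per the file headers, percent values for reads with C and with T. No cytosine below 10 reads is listed, and replicates were not pooled. The reads carry no molecular identifiers, so that no limits were drawn from read numbers.

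Methylated reads were computed as coverage times percent C, which gave whole numbers at 100% of cytosines within the rounding of the percent. Groups came from the labels alone. The intervals, members and lists were chosen with earlier results of these data known. Windows were consecutive stretches of 1000 bp, and reads of their cytosines were added up. A library's window level is methylated over all reads of the cytosines it covers. A library without a feature was dropped from that feature. Each feature was fitted genome-wide by quasi-binomial logistic regression on the 4 groups. Overdispersion was shrunk over features in the manner of limma's squeezeVar (prior degrees of freedom 3.45 for windows, 0.492 for cytosines) and not let below 1. Groups were compared by a two-sided F test of the deviance with Benjamini-Hochberg adjustment. This test weights libraries by their reads, while the printed differences are of unweighted means of libraries, and these can disagree. The interaction was tested against the additive model, and the fraction over both genotypes by its term in that model. The model was tested on simulated windows of at least 3 cytosines, in the 4 comparisons of 2 groups. Single cytosines, windows of fewer cytosines, the interaction and the fraction test were not simulated. Named were called features, those of smallest p in each gene and comparison, the start windows and the windows of widest range of group means, with windows ranked among those of at least 3 cytosines. Others are said to be chosen after their values were seen.

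Alternatives were a coverage minimum of 20, cytosines read in all 20 libraries, windows of at least 1 cytosine, windows shifted by 500 bp, both strands summed, 2 groups only, unmoderated overdispersion, limma on logit levels with 0.5 reads added, a flowcell factor, replicate blocks and libraries left out. The fraction over both genotypes was not tested with a flowcell factor or replicate blocks. Python 3.11.15, numpy 2.4.6, scipy 1.17.1, pandas 2.3.3, R 4.3.3 and limma 3.58.1 were used. With no mm9 annotation used here, exons, introns and other progenitor surface genes were not analysed here. Starts of transcription are those of the RefSeq promoter table (GRCm38.p6), placed by CpG spacing, with the first listed of 2 starts used for Kit.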

Additional observations from a re-analysis of the deposited data

Results flagged for a closer look

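Libraries were looked for that stand apart from the 4 others of their group, by Dixon's gap over range. Of 48 groups checked at the named features of Cd34 and Kit, 6 held such a value. For independent values of normal spread chance gives about 1 in 20, or 2.4. Most of the features were picked by p or range and several lie near 0% or 100%, so the 2 counts cannot be compared. In the Cd34 window 196796001, WT CD34+ replicate 1 stood at 81.5%, the others of its group between 94.7% and 97.7%. In the Cd34 start window 196765001, PML-RARa CD34+ replicate 13 stood at 0.875%, the others between 0.0913% and 0.236%. In the Kit window 75985001, PML-RARa CD34+ replicate 11 stood at 50.8%, the others between 64.3% and 68.7%. In the Kit start window 75971001, WT CD34+ replicate 15 stood at 0.485%, the others at most at 0.114%. At the Cd34 cytosine 196796850, WT CD34− replicate 8 stood at 84.2%, the others between 98.7% and 100%. At the Kit cytosine 75970683, PML-RARa CD34+ replicate 19 stood at 6.42%, the others at most at 0.735%.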

How the results depend on the processing

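Across the alternatives run, no member window of at least 3 cytosines was called in any of the 4 comparisons or the interaction. With windows of at least 1 cytosine the test of the fraction in both genotypes called 1 member window instead of 0, the Kit window 76000001. Without the 5 libraries of high scatter the same test called 0 member cytosines instead of 1, Kit 76000582, whose difference was 31.8 instead of 37.1 points (adjusted p = 0.0874 instead of 0.0160). The labels give a # number of 1 or 2 in each group, and consecutive title numbers share genotype and # number. Deviations of libraries with consecutive numbers correlated between -0.0578 and 0.238, against a median of -0.00242 for libraries of another group and # number. Best matches were sought in the other fraction of the same genotype. In WT 7 and 8, 9 and 10, 17 and 18 and PML-RARa 19 and 20 both matched best. In WT 1 and 2 and PML-RARa 11 and 12 only the CD34+ library did. In PML-RARa 3 and 4, 5 and 6, 13 and 14 and WT 15 and 16 neither did. The main tests assume no pairing and may ignore a real one. With a replicate block of the # number the Kit window 76000001 was called in WT mice (31.8 points, adjusted p = 0.0441). With a block of consecutive numbers 1 member cytosine, Cd34 196786397, was called in PML-RARa mice, as were 3547 of all (13.9 points, adjusted p = 0.0321, against 0.538 without the block). It was 100% in all CD34− libraries and had a median of 100% in CD34+ libraries, where replicate 11, of high scatter, stood at 39.1%, and the difference was 2.11 points without that library. Leaving out single libraries gave 28.4 to 36.0 points for the Kit window 76000001 in WT mice, 19.8 to 28.5 in PML-RARa mice and 25.5 to 30.2 in both. The Cd34 window 196796001 changed sign without the 5 libraries: PML-RARa minus WT in CD34+ cells was -0.331 instead of 3.99 points, and CD34− minus CD34+ in WT mice -0.0739 instead of 2.94 points. The second was also -0.0739 points without WT CD34+ replicate 1, and at most 3.98 points without other single libraries. The mean level of Cd34, 28.9% over all libraries, was 21.7% at a coverage of 20 and 20.2% over cytosines read in all 20. That of Kit, 47.1%, was 41.6% and 39.5% in those settings and 39.5% with all reads pooled. These settings do not average the same cytosines. At a coverage of 20, 35 of the 42 cytosines of Cd34 and 119 of the 159 of Kit remained. Read in all 20 libraries were 19 at Cd34 and 101 at Kit. Pooling weights each cytosine by its reads. How much of the shift this makes was not tested.

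Counts of called windows over the genome moved more. The 543 of WT mice were 136 by limma, 357 at a coverage of 20 and 306 without CD34+ replicate 9. The 71 of PML-RARa mice were 0 with a flowcell factor, 3 without the 5 libraries, 8 with 2 groups only, 25 by limma, 110 with shifted windows and 108 with at least 1 cytosine. Cytosines in PML-RARa mice moved between 0 without the 5 libraries and 3547 with a block of consecutive numbers, around 34. A window of 2 cytosines with 26 to 130 reads per library is measured less precisely than the start windows.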

Other observations

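The cytosine 76032801 on the reverse strand, 61789 bp after the start of Kit, was the other cytosine of low methylation away from the start. It averaged 19.2% ± 23.7 in PML-RARa CD34− and 7.16% ± 4.96 in PML-RARa CD34+ libraries, and 25.2% ± 12.6 in WT CD34− and 7.77% ± 3.44 in WT CD34+ libraries (n = 5 each, SD). The difference of the fractions in both genotypes together was 14.7 points (adjusted p = 0.323 in the quasi-binomial fit) and was not called. The position was chosen after its values were seen.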
